A study of Rattus norvegicus with 6 samples.

Results

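The molecular clock of the rat liver was examined through 10 genes, out of 32623 genes in the table: the activators Arntl (also written Bmal1) and Clock, the repressors Per1, Per2, Per3, Cry1 and Cry2, the REV-ERB receptors Nr1d1 and Nr1d2, and the output factor Dbp. They were chosen by symbol, and all 10 were found and passed the low-count filter that left 14298 genes for testing. Messenger RNA was sequenced in bulk from 3 liver samples embolized with zinc sulfide microspheres (GZM), the treated group, and 3 embolized with blank microspheres (GM), the control. Embolization closes off arteries with injected particles, and the title of the study places it in hepatocellular carcinoma, the main cancer of the liver cell. The groups thus share embolization and differ in the zinc sulfide carried by the spheres. The labels call every sample liver, do not tell tumour from the liver around it, and give neither strain, age nor time after embolization. They number the samples of a group as biosamples and do not state that each is its own animal, so the spread behind the p-values is that between these samples and may be technical. No label gives the time of day of collection either, and each value below is a level at an unstated hour.

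The circadian clock is a feedback loop of transcription that runs in nearly every cell with a period of about a day. ARNTL and CLOCK pair up and switch on the Per and Cry genes, whose proteins return to the nucleus and block that pair until they are degraded. In a second loop the pair switches on Nr1d1 and Nr1d2, whose REV-ERB proteins repress Arntl, while ROR receptors act on the same DNA element to raise it. In liver the clock drives daily rhythms of bile acid, heme, sugar and drug metabolism, in part through Dbp and its relatives Tef and Hlf, and Dbp, Nr1d1 and the Per genes are among its most strongly rhythmic transcripts.

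Short DNA elements join these genes, and the promoters below are among the windows that hold one: those of Per2, Arntl and Nr1d1. Sequences are RefSeq windows of 300 bases on build GRCr8, from 250 bases before the annotated start to 50 after it, 5′ to 3′ on the gene's strand, with a matched element in capitals. The Per2 window (chr9:99496944-99497243, minus strand) holds a D-box, the element of DBP, TEF, HLF and the repressor NFIL3, first base 192 before the start, and an E′-box, an element of the ARNTL and CLOCK pair, 62 before it. The Arntl window (chr1:176766078-176766377, plus strand) holds an RORE, the element that REV-ERB and ROR proteins share, 20 before the start. Nr1d1 has annotated starts at 2 places, with an E′-box 174 before the upstream start (chr10:84231763-84232062, minus strand) and an E-box 191 before the downstream start (chr10:84229405-84229704, minus strand).
Per2: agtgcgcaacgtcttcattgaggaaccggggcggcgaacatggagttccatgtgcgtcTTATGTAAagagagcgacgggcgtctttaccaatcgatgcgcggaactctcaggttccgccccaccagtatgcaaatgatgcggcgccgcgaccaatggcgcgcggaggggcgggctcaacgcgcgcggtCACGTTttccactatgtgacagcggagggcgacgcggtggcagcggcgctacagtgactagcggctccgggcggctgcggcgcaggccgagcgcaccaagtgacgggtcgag
Arntl: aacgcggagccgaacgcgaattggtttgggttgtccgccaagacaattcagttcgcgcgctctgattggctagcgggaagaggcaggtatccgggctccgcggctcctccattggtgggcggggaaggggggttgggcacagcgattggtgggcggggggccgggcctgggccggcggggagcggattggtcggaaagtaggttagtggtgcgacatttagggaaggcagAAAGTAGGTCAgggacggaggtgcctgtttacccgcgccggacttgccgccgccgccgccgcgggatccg
Nr1d1, upstream start: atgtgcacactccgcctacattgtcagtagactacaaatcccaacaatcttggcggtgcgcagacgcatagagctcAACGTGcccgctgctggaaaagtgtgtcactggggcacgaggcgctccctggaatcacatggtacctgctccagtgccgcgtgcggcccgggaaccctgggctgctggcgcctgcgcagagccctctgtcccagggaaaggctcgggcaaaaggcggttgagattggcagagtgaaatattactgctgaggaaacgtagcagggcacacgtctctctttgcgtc
Nr1d1, downstream start: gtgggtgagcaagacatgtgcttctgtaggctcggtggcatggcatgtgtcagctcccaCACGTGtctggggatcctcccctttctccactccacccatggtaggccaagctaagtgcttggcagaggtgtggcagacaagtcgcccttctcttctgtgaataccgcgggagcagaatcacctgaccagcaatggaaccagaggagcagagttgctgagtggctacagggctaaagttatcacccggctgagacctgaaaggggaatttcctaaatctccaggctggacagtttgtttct

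Both strands were searched for the E-box CACGTG, the E′-box CACGTT, the D-box TTATGNAA, the cyclic AMP response element TGACGTCA and the RORE, and no match overlapped another. Of 33469 promoter windows of this length, 6.42% held the E-box, 4.83% the E′-box, 3.66% the D-box, 1.83% the cyclic AMP element and 0.356% the RORE. In the 11 windows that matched 9 of the members (Cry1 was not matched), the E-box was found in 1, the E′-box in 3 (Per2, Cry2 and Nr1d1), the D-box in 1, the RORE in 1 and the cyclic AMP element in 0. No element was found in the windows of Clock, Per1, Per3, Nr1d2 and Dbp. A match describes letters and is not evidence of a bound site.

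Gene counts summed to between 13443115 and 16073943 in GZM libraries and between 14552885 and 16604067 in GM libraries. The libraries differed in composition, and this decides how a clock gene reads. Factors of the trimmed mean of M-values (TMM), which assume that most genes do not differ, were 0.715 to 0.793 in GZM and 1.17 to 1.43 in GM. There the median log2 fold change of all tested genes was -0.09, and 44.0% of genes passed edgeR's quasi-likelihood test at an adjusted p under 0.05 (22.2% higher, 21.7% lower in GZM). Scaled to library totals, as the deposited FPKM values are, the median was -0.92 and 68.7% passed (9.2% higher, 59.5% lower). Values below are therefore given on both scales, as FPKM or log2 fold changes by library totals and as TMM-scaled CPM, which are counts divided by the library total multiplied by its TMM factor, and ratios of 2 transcripts within a library, which depend on neither, are given as well. Defining markers of hepatocytes were present in every library and made up 10.7% to 11.5% of counts in GZM and 2.28% to 6.78% in GM, the highest GM value being that of GM 3. Markers of dividing cells took 0.0129% to 0.0155% in GZM and 0.0561% to 0.183% in GM, T-cell markers 0.00643% to 0.0196% in GZM and 0.0378% to 0.0598% in GM, macrophage markers 0.109% to 0.156% in GZM and 0.448% to 0.608% in GM, and stellate cell and fibroblast markers 0.143% to 0.306% in GZM and 0.495% to 1.37% in GM. Endothelial markers (0.0254% to 0.0334% in GZM and 0.0289% to 0.0401% in GM) and those of red cell precursors (0.0196% to 0.0381% in GZM and 0.00587% to 0.0231% in GM) overlapped, and bile duct markers took 0.00873% to 0.0153% in GZM and 0.0172% to 0.0391% in GM. No marker found in the table was at 0 in all libraries. Of 5 bile duct markers 1 rose on the TMM scale (Epcam, 1.29) and 4 did not pass. With library totals 1 fell (Spp1, -1.77). Spp1 had the most counts of the 5 in every library, with 595, 1211 and 1354 in GZM and 4616, 2215 and 4447 in GM. Of 7 endothelial markers 5 rose on the TMM scale, 1 fell (Vwf, -1.07) and 1 did not pass. With library totals 0 rose and 1 fell. Among 7 stellate cell and fibroblast markers 1 rose (Lrat), 1 fell (Col1a1) and 5 did not pass, and 6 fell with library totals. The macrophage markers did not all move with their sum: of 8, 1 rose on the TMM scale (Clec4f, 2.28), 5 fell and 2 did not pass (Marco and Cd14). With library totals 1 rose (Clec4f, 1.51) and 6 fell. Lyz2, which fell on both scales, had the most counts of the 8 in every library. The T-cell sum likewise did not stand for each of its genes. Of 8 T-cell markers 0 rose on the TMM scale, 1 fell (Cd8a) and 7 did not pass, and for these 7 the groups overlapped. With library totals 0 rose and 4 fell. Cd8a and Cd4 had the most counts of the T-cell markers in every library. In bulk tissue fewer cells of a type and less RNA per cell cannot be told apart. The part of these shifts in the clock values was not tested.

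Of the 10 clock genes 5 rose in GZM on the TMM scale and 0 fell, against 44.0% of all tested genes passing in either direction. The median log2 fold change of the 10 was 0.61, against -0.09 over all tested genes. With library totals 3 passed, 1 higher and 2 lower, against 68.7% of all genes, and the median was -0.22, against -0.92. The gene that passed as higher on both scales was Per2. By TMM-scaled CPM all GZM libraries lay above all GM libraries for 5 members (Arntl, Clock, Per2, Cry2 and Nr1d2) and below for 0, against 28.4% and 29.7% of all tested genes. By library totals 3 members did not overlap (Per2 above, Per3 and Dbp below), against 75.2% of all tested genes.

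**Figure D1:**
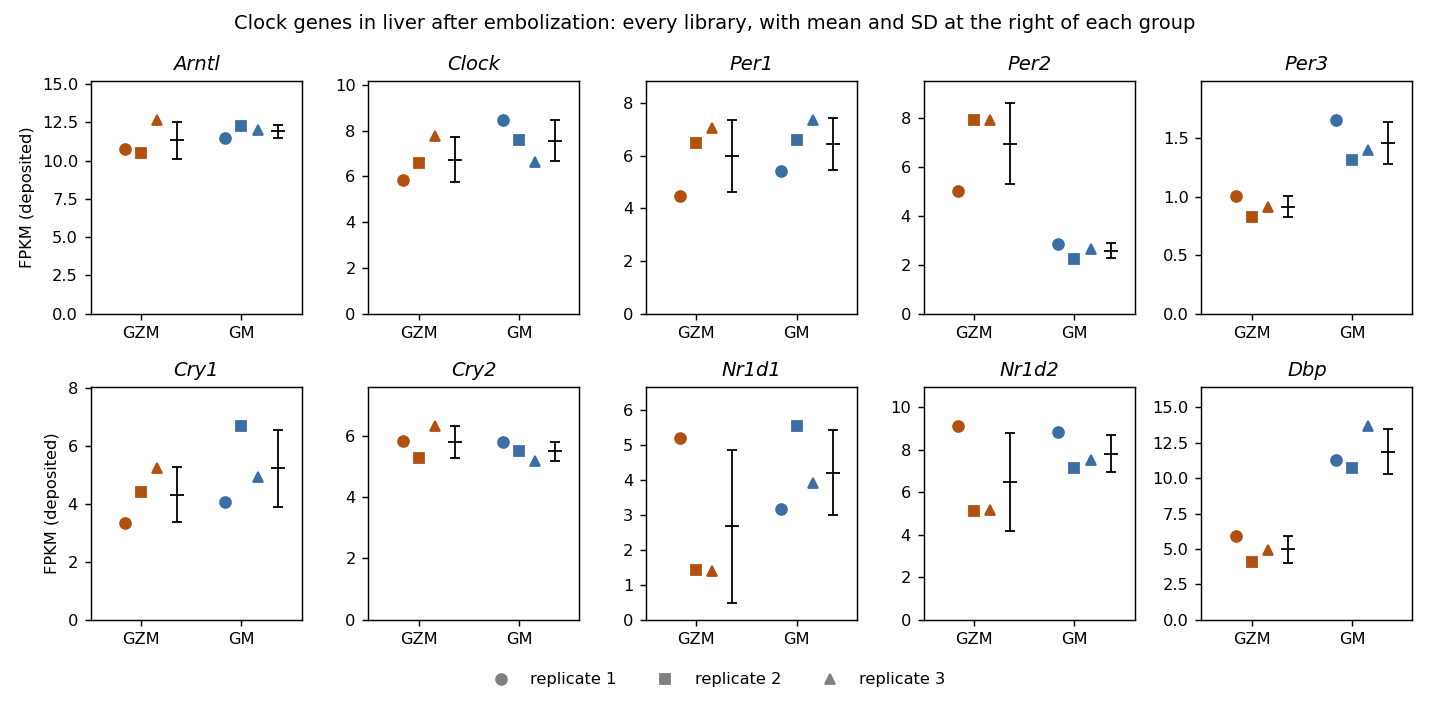
Deposited FPKM values (y axis, linear, from 0) of the 10 clock genes in each library, with GZM left of GM; marker shapes give the replicate number, and the bar beside each group is its mean and SD (n = 3). Per2 lies between 5.03 and 7.93 in GZM and between 2.24 and 2.83 in GM, Dbp between 4.08 and 5.94 in GZM and between 10.7 and 13.7 in GM, and Nr1d1 in GZM is split into 5.19 in replicate 1 and 1.43 and 1.39 in the others.

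Among the repressors, Per2 had the largest log2 fold change on both scales. Per2 (ENSRNOG00000020254, chromosome 9), whose protein binds the cryptochromes and shuts down the activator pair, had 391, 680 and 737 counts in GZM 1, 2 and 3, and 238, 215 and 254 counts in GM 1, 2 and 3. As FPKM, which corrects for exon length and library total, these are 5.03, 7.92 and 7.93 in GZM and 2.83, 2.24 and 2.65 in GM. Every GZM library lay above every GM library, and GZM 1 was the lowest of its group. On the TMM scale Per2 averaged 53.7 ± 13.0 CPM in GZM and 11.2 ± 1.97 CPM in GM (SD, n = 3 each), a log2 fold change of 2.26 ± 0.23 (SE, edgeR adjusted p = 0.00192), or 4.79-fold. With library totals the log2 fold change was 1.44 (edgeR adjusted p = 0.00146). Over the 14 other settings tried it stayed between 1.14 and 2.64, with an adjusted p of at most 0.0138.

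The paralog Per1 (ENSRNOG00000007387, chromosome 10), the member of the family best known for quick induction by glucocorticoids and cyclic AMP, overlapped between the groups. It had 4.46, 6.49 and 7.05 FPKM in GZM and 5.4, 6.58 and 7.36 FPKM in GM, with the lowest value in GZM 1 and the highest in GM 3. By TMM-scaled values it averaged 32.4 ± 6.96 CPM in GZM and 19.9 ± 5.14 CPM in GM, a log2 fold change of 0.71 ± 0.25 that just passed (edgeR adjusted p = 0.0479). That call was lost without GZM 2 (0.61, adjusted p = 0.159), GZM 3 (0.63, 0.14), GM 1 (0.55, 0.148) or GM 2 (0.67, 0.114), and with library totals the value was -0.10 (adjusted p = 0.698). Without the low-count filter it also missed the threshold (0.69, adjusted p = 0.0507).

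Per3 (ENSRNOG00000018413, chromosome 5), which is dispensable for the core rhythm in mice, was the least abundant member per length in both groups. It had 1.01, 0.83 and 0.91 FPKM in GZM and 1.66, 1.32 and 1.40 FPKM in GM. By this measure all GZM libraries lay below all GM libraries, and with library totals Per3 was called lower (log2 fold change -0.66, edgeR adjusted p = 0.0397). On the TMM scale the groups overlapped, at 7.94 ± 0.766 CPM in GZM and 7.08 ± 0.938 CPM in GM, and it did not pass (0.17 ± 0.23, adjusted p = 0.577; 95% interval -0.36 to 0.70).

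The cryptochromes, which carry most of the repressing activity of the complex, differed in how tightly their libraries lay. Cry2 (ENSRNOG00000007478, chromosome 3) had 5.83, 5.28 and 6.32 FPKM in GZM and 5.80, 5.50 and 5.19 FPKM in GM. These values overlap, and with library totals the log2 fold change was 0.08 (edgeR adjusted p = 0.704). On the TMM scale Cry2 rose, at 30.7 ± 1.23 CPM in GZM and 16.4 ± 1.11 CPM in GM (0.91 ± 0.15, edgeR adjusted p = 0.00369), a call kept without any 1 library. Cry1 (ENSRNOG00000006622, chromosome 7), the later-peaking cryptochrome, had 3.33, 4.40 and 5.24 FPKM in GZM and 4.07, 6.69 and 4.93 FPKM in GM. It overlapped between groups on both scales and did not pass, with 16.8 ± 3.26 CPM in GZM and 11.5 ± 2.81 CPM in GM (0.55 ± 0.26, adjusted p = 0.115, 95% interval -0.04 to 1.14; -0.27 with library totals). It passed as higher in the fit without both GM 3 and GZM 1 (0.83, adjusted p = 0.0394).

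The activators changed together, and by an amount close to the shift between scales. Arntl (ENSRNOG00000014448, chromosome 1), the partner without which the liver clock stops, had 10.78, 10.49 and 12.66 FPKM in GZM and 11.46, 12.27 and 11.99 FPKM in GM. Clock (ENSRNOG00000002175, chromosome 14), its usual partner, had 5.86, 6.57 and 7.79 FPKM in GZM and 8.48, 7.59 and 6.65 FPKM in GM. As FPKM the groups overlapped for both genes. By TMM-scaled values Arntl averaged 44.8 ± 2.36 CPM in GZM and 26.7 ± 3.36 CPM in GM (log2 fold change 0.75 ± 0.15, edgeR adjusted p = 0.0068). Clock averaged 84.6 ± 9.29 CPM in GZM and 53.3 ± 2.83 CPM in GM (0.67 ± 0.15, edgeR adjusted p = 0.00946). On this scale GZM did not overlap GM for either gene, as for 58.1% of all tested genes, and both calls were kept without any 1 library. With library totals the values turned to -0.08 for Arntl (adjusted p = 0.697) and -0.17 for Clock (adjusted p = 0.43).

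The REV-ERB receptors, heme-binding repressors of Arntl, were split within the GZM group. Nr1d1 (ENSRNOG00000009329, chromosome 10) had 178, 54 and 57 counts in GZM 1, 2 and 3, and 118, 234 and 165 counts in GM 1, 2 and 3. As FPKM that is 5.19, 1.43 and 1.39 in GZM and 3.18, 5.54 and 3.90 in GM. By FPKM GZM 2 and GZM 3 thus lay below every GM library and GZM 1 lay among them. On the TMM scale Nr1d1 had 17.9, 5.09 and 4.48 CPM in GZM and 5.69, 9.96 and 8.48 CPM in GM. There GZM 1 lay above every GM library, and GZM 2 and GZM 3 again lay below. The group comparison did not pass on either scale (TMM log2 fold change 0.18 ± 0.53, edgeR adjusted p = 0.805, 95% interval -1.05 to 1.41; -0.66 with library totals, adjusted p = 0.281). Its sign depended on GZM 1: without it the TMM value was -0.74 (adjusted p = 0.123). Without GM 1 it was -0.02 (adjusted p = 0.978). Nr1d1 overlaps Thra, the thyroid hormone receptor alpha gene on the other strand, by 1059 bases, and whether counting used the strand is not given in the sources used here, so reads of the 2 genes may be mixed. Thra had 196, 159 and 162 counts in GZM and 559, 837 and 419 counts in GM, or 19.7, 15.0 and 12.7 TMM-scaled CPM in GZM and 27.0, 35.6 and 21.5 CPM in GM. It was highest within GZM in GZM 1 as well, and the part of shared reads in the Nr1d1 values was not tested. Nr1d2 (ENSRNOG00000046912, chromosome 15), the second REV-ERB, overlaps no other gene of the table and was also highest within GZM in GZM 1, with 9.12, 5.13 and 5.18 FPKM, against 8.82, 7.14 and 7.51 FPKM in GM. It did not pass (TMM 40.0 ± 14.5 CPM in GZM and 27.1 ± 3.40 CPM in GM; 0.56 ± 0.26, adjusted p = 0.111, 95% interval -0.03 to 1.15; -0.28 with library totals).

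Dbp (ENSRNOG00000021027, chromosome 1), the output factor that binds D-boxes, was the member with the lowest fold change on both scales. It had 136, 103 and 134 counts in GZM and 279, 302 and 387 counts in GM, or 5.94, 4.08 and 4.90 FPKM in GZM and 11.3, 10.7 and 13.7 FPKM in GM. By FPKM all GZM libraries lay below all GM libraries, as for 64.7% of tested genes on that scale. With library totals Dbp fell (log2 fold change -1.26, edgeR adjusted p = 0.00236). On the TMM scale GZM 1 overlapped GM and Dbp did not pass, at 11.3 ± 2.07 CPM in GZM and 15.4 ± 3.90 CPM in GM (-0.45 ± 0.25, adjusted p = 0.177, 95% interval -1.02 to 0.13).

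**Figure D2:**
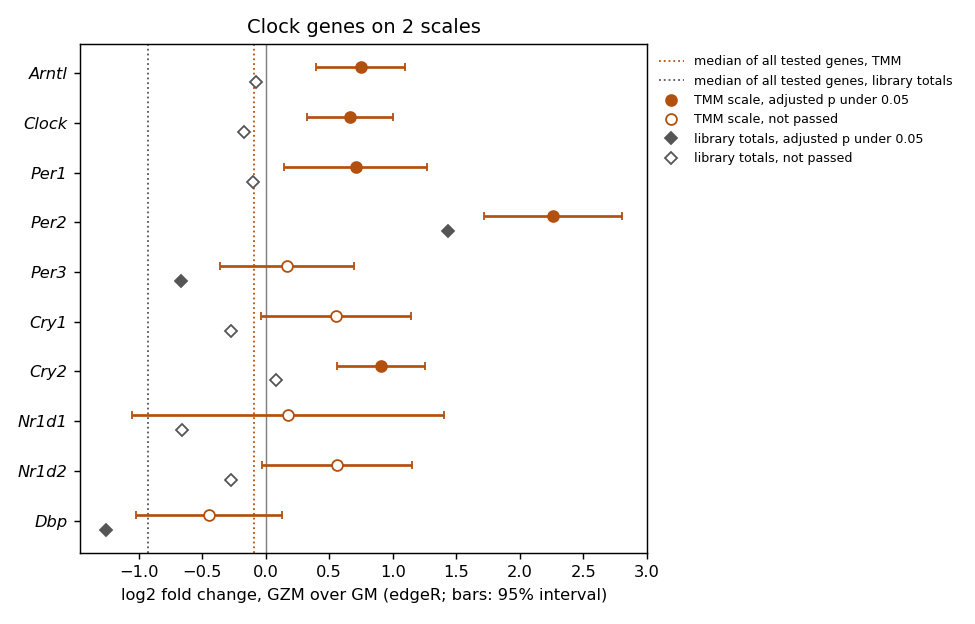
The log2 fold change of GZM over GM (x axis) for each clock gene in edgeR, on the TMM scale (circles, with unadjusted 95% intervals) and with library totals (diamonds), filled where the adjusted p is under 0.05; dotted lines mark the median of all tested genes on each scale, -0.09 and -0.92. Per2 stands at 2.26 and 1.44, filled on both scales, while Arntl, Clock, Per1 and Cry2 are filled on the TMM scale and lie between -0.17 and 0.08 with library totals.

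Ordered by mean FPKM, Arntl came first in both groups (11.3 ± 1.18 FPKM in GZM and 11.9 ± 0.411 FPKM in GM) and Per3 last (0.917 ± 0.0902 FPKM in GZM and 1.46 ± 0.178 FPKM in GM). Per2 took place 2 in GZM, at 6.96 ± 1.67 FPKM, and place 9 in GM, at 2.57 ± 0.302 FPKM. Dbp took place 7 in GZM, at 4.97 ± 0.932 FPKM, and place 2 in GM, at 11.9 ± 1.59 FPKM. In GZM the levels from Per2 at 6.96 down to Cry1 at 4.32 FPKM lay within the SDs of their neighbours in that order. In GM the same held for Nr1d2 at 7.82 and Clock at 7.57 FPKM, and then from Per1 at 6.45 down to Nr1d1 at 4.21 FPKM, while Clock and Per1 differed by more than the SD of either.

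Ratios within a library showed the same reordering free of any scaling. Per2 per Cry1, by FPKM, was 1.51, 1.80 and 1.51 in GZM and 0.695, 0.335 and 0.538 in GM. All GZM ratios lay above all GM ratios, a mean log2 difference of 1.68, or 3.20-fold (exact two-sided permutation p = 0.1, the smallest that 3 against 3 libraries allow). The ratio Per2 per Per1 was 1.13, 1.22 and 1.13 in GZM and 0.524, 0.340 and 0.360 in GM. Per2 thus exceeded Per1 per length in each GZM library and stood below it in each GM library. Against each of the 9 other members the Per2 ratio was higher in all GZM than in all GM libraries, by 2.52-fold (against Cry2) to 6.39-fold (against Dbp). The Per2 ratio was likewise higher in all GZM libraries against 87.9% of the 14297 other tested genes, and lower against 0.783%.

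Dbp per Arntl was 0.551, 0.389 and 0.387 in GZM and 0.983, 0.872 and 1.14 in GM. The groups did not overlap, and the mean log2 difference was -1.19, or 2.28-fold lower in GZM (exact two-sided permutation p = 0.1, the smallest possible). The Dbp ratio was lower in all GZM libraries against 7 of the 9 other members, and overlapped against Cry1 and Nr1d1. Against the 14297 other tested genes, the Dbp ratio was lower in all GZM libraries against 35.5% and higher against 9.41%. Nr1d1 per Arntl was 0.481, 0.136 and 0.110 in GZM and 0.277, 0.452 and 0.325 in GM. GZM 1 held the highest of the 6 ratios and GZM 2 and GZM 3 the lowest, and the mean log2 difference of -0.83 had an exact two-sided permutation p of 0.4. Without GZM 1 it was -1.49 (exact permutation p = 0.1, the smallest possible for 2 against 3), without GZM 2 -0.58 and without GZM 3 -0.43.

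**Figure D3:**
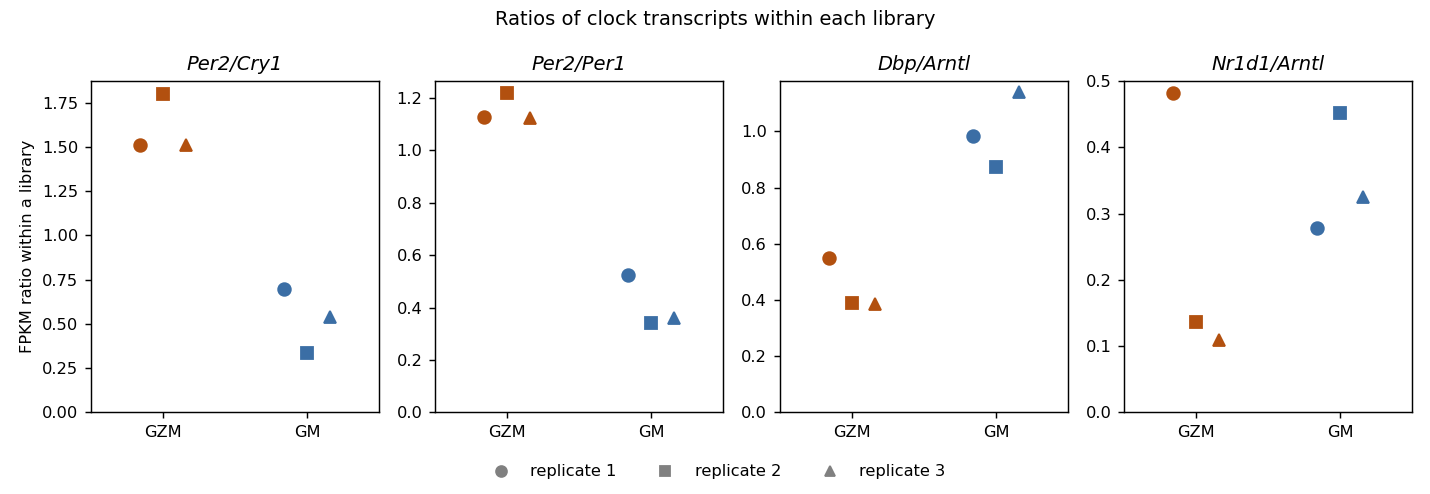
FPKM ratios of 2 clock transcripts within each library (y axes, linear, from 0), with GZM left of GM and marker shapes for the replicate number. Per2/Cry1 and Per2/Per1 are higher in each GZM library than in any GM library, Dbp/Arntl is lower, and Nr1d1/Arntl in GZM runs from 0.110 to 0.481, across the GM range of 0.277 to 0.452.

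Over all 45 pairs of members the ratio did not overlap between groups in 20, a smaller share than the 57.8% of all pairs of tested genes. Of these 20 pairs, 9 include Per2. Clock per Arntl, the ratio of the activator partners, was 0.544, 0.626 and 0.615 in GZM and 0.740, 0.619 and 0.555 in GM, and overlapped. Cry2 per Arntl also overlapped, at 0.541, 0.503 and 0.499 in GZM and 0.506, 0.448 and 0.433 in GM.

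Within the GZM group, Nr1d1 in GZM 1 differed most, among the 10 members, from the other libraries. By TMM-scaled log2 CPM its Nr1d1 level was 3.67-fold the geometric mean of GZM 2 and GZM 3, its Nr1d2 level 1.79-fold and its Dbp level 1.35-fold. Its Per2 level was 1.55-fold lower, Per1 1.49-fold lower and Cry1 1.42-fold lower than in those libraries, while Arntl, Cry2 and Per3 differed by less than 1.2-fold. Shifts of the size of those of Dbp, Per1 and Cry1 also occurred within GM, with log2 differences from the other libraries of the group of -0.63 for Cry1 in GM 1, and of 0.59 for Dbp and 0.58 for Per1 in GM 3. For Per2 the largest such difference within GM was -0.42, in GM 2, against -0.63 in GZM 1. Of the 10 members 1 (Nr1d1) differed by at least 2-fold, against 9.35% of all tested genes in this library. By the same measure 0 members differed in GZM 2 and 1 in GZM 3, against 4.25% and 4.86% of all tested genes, and in the GM group 0, 0 and 0 in GM 1, GM 2 and GM 3, against 3.9%, 12.1% and 12.7%. Several marker sums were highest in the same library. T-cell markers took 0.0196% of counts in GZM 1 and 0.00643% and 0.00855% in GZM 2 and GZM 3, stellate cell and fibroblast markers 0.306% in GZM 1 and 0.175% and 0.143% in the others, and markers of red cell precursors 0.0381% in GZM 1 and 0.0196% and 0.0240% in the others. Bile duct markers were lowest there, at 0.00873% in GZM 1 and 0.0132% and 0.0153% in the others. The sum of hepatocyte markers was 11.5% in GZM 1 and 11.4% and 10.7% in the others, but single markers differed in GZM 1, Cyp2e1 being 4.99-fold higher, Apoa1 2.30-fold lower and Ass1 2.02-fold lower. The part of these markers in the Nr1d1 split was not tested.

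Other clock transcription factors were taken from a list. Of 12, 11 were tested (Rorb was at 0 in all libraries): 6 rose, 2 fell and 3 did not pass, against 44.0% of all genes passing, with a median log2 fold change of 0.75 (-0.07 with library totals, where 4 rose and 3 fell). Npas2, the paralog of Clock that can pair with ARNTL in its place, had 24.3, 43.3 and 32.8 CPM in GZM and 7.38, 5.06 and 11.5 CPM in GM. All GZM libraries lay above all GM libraries, with a log2 fold change of 2.07 ± 0.34 (edgeR adjusted p = 0.00368; 1.27 with library totals, adjusted p = 0.00636). Nfil3, which competes with DBP for D-boxes and represses through them, had 89.2, 96.1 and 83.1 CPM in GZM and 24.4, 26.7 and 35.4 CPM in GM. It rose on both scales (1.63 ± 0.18, edgeR adjusted p = 0.00204; 0.81 with library totals, adjusted p = 0.00271). The calls of Npas2 and Nfil3 were kept in all 14 other settings.

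Of the factors that share the D-box with Dbp, Hlf was called and Tef was not. Hlf, with 43, 37 and 46 counts in GZM and 15, 11 and 32 in GM, rose (2.01 ± 0.48, edgeR adjusted p = 0.0125; 1.23 with library totals, adjusted p = 0.0354; 1.85, adjusted p = 0.0506 without GM 1; 2.70 without GM 3). Tef had 57.1, 33.9 and 39.5 CPM in GZM and 26.7, 21.5 and 34.2 CPM in GM and did not pass (0.66 ± 0.25, adjusted p = 0.0604; -0.15 with library totals), though it passed without GM 3 (0.89, adjusted p = 0.0184). Whether Dbp differs from Hlf or Tef was not tested.

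Rora, a receptor that raises Arntl through the RORE, at 21, 47 and 53 counts in GZM and 27, 15 and 22 counts in GM, rose on the TMM scale (1.80 ± 0.43, edgeR adjusted p = 0.0129) but not with library totals (0.98, adjusted p = 0.076) or without GZM 2 (1.63, adjusted p = 0.0572).

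The DEC repressors, which compete with the activator pair for E-boxes, were called in opposite directions on the TMM scale. Bhlhe40 (DEC1) rose on the TMM scale (0.75 ± 0.17, edgeR adjusted p = 0.0102), with -0.07 by library totals (adjusted p = 0.724). Bhlhe41 (DEC2), at 12, 3 and 16 counts in GZM and 60, 43 and 145 counts in GM, fell by 2.13 on the TMM scale (edgeR adjusted p = 0.0371) and by 2.87 with library totals (adjusted p = 0.0049). The TMM call of Bhlhe41 was lost without GZM 1 (-2.34, adjusted p = 0.0676), GZM 2 (-1.70, 0.111), GZM 3 (-2.44, 0.0702), GM 1 (-2.32, 0.0592) or GM 3 (-1.31, 0.101). Timeless, which in mammals serves mainly at replication forks, fell by 1.54 (13.8, 15.6 and 17.6 CPM in GZM, and 45.3, 60.9 and 30.7 CPM in GM; edgeR adjusted p = 0.00383; -2.40 with library totals), kept in all 14 other settings. All 10 markers of dividing cells fell as well, and their part in the fall of Timeless was not tested. Ciart, a further repressor of the activator pair, did not pass (-0.58 ± 0.39, adjusted p = 0.258; -1.40 with library totals, adjusted p = 0.0121), nor did Arntl2, the paralog of Arntl (0.53 ± 0.36, adjusted p = 0.259; -0.30 with library totals).

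**Figure D4:**
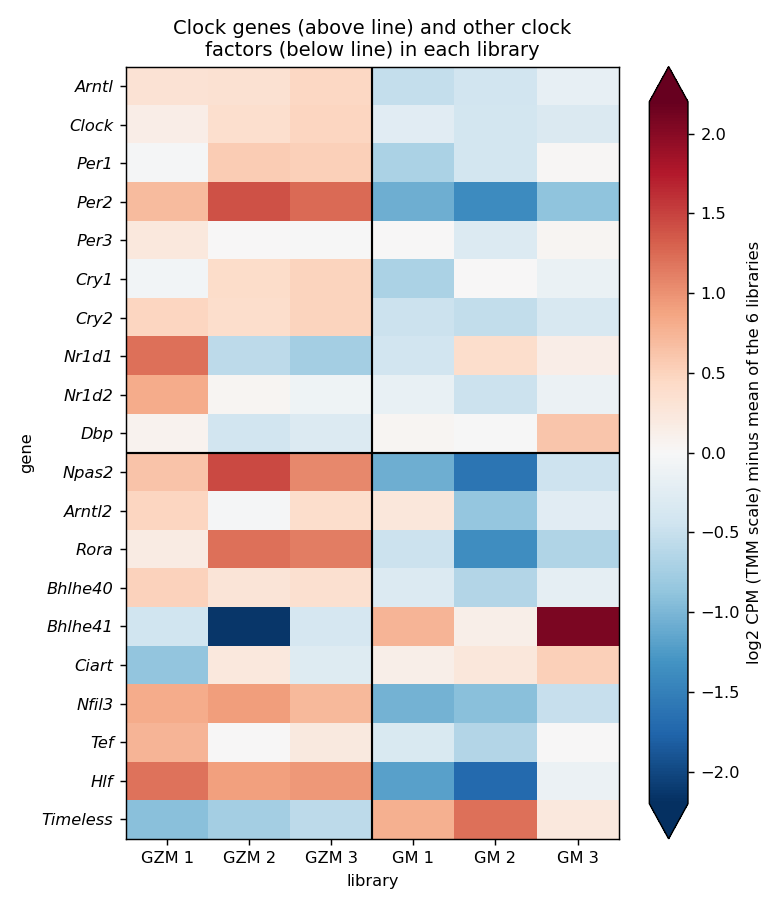
Log2 CPM on the TMM scale of the 10 clock genes (above the horizontal line) and 10 other clock factors (below it), less the mean of the 6 libraries for each gene, with GZM libraries left of the vertical line and GM libraries right of it; colours saturate at 2.2. Per2 runs from 0.69 to 1.40 in GZM and from -1.39 to -0.88 in GM, a pattern that Npas2 also shows, while Nr1d1 is at 1.21 in GZM 1 and below 0 in GZM 2 and GZM 3.

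Genes for the kinases, ubiquitin ligases and cofactors that set the life of clock proteins were mostly not called on the TMM scale. Of 15 tested, 2 rose, 2 fell and 11 did not pass, against 44.0% of all genes passing, with a median of -0.02 (-0.87 with library totals, close to the -0.92 of all genes, where 12 fell and 1 rose). The casein kinases that mark PER proteins for degradation did not pass on the TMM scale, Csnk1d at -0.02 ± 0.20 (adjusted p = 0.947) and Csnk1e at -0.22 ± 0.16 (adjusted p = 0.292). Both were among those that fell with library totals, Csnk1d at -0.87 (edgeR adjusted p = 0.0144) and Csnk1e at -1.07 (edgeR adjusted p = 0.00316). Usp2, a rhythmic deubiquitinase that acts on clock proteins, rose (6.62, 8.39 and 10.1 CPM in GZM and 1.93, 1.49 and 3.70 CPM in GM; 1.83 ± 0.39, edgeR adjusted p = 0.00861; 1.04 with library totals, adjusted p = 0.0322), kept in all 14 other settings. The other 3 calls, Prkaa2 (1.16), Fbxl21 (-1.01) and Csnk2a1 (-0.64), were each lost in at least 6 of the 14. Prkaa2 was lost without GZM 2, GZM 3, GM 1 or GM 2 (0.93 to 1.26), and Fbxl21 (-1.10 to -0.63) and Csnk2a1 (-0.76 to -0.46) without any library but GM 3.

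Liver genes known, mostly from mice, as rhythmic outputs of the clock were mostly called. Of 17, 15 were tested (Elovl3 and Tspan4 were too low): 9 rose, 2 fell and 4 did not pass, against 44.0% of all genes passing, with a median of 1.77 (0.96 with library totals, where 6 rose and 4 fell, against 68.7%). Of 10 hepatocyte markers 9 rose as well (Cyp2e1 did not pass), and their part in this list was not tested. Alas1, the rate-limiting enzyme of heme synthesis, had 163.4, 217.2 and 174.0 CPM in GZM and 41.8, 46.4 and 65.0 CPM in GM (1.86 ± 0.22, edgeR adjusted p = 0.00225). Nr0b2, the bile acid-induced repressor SHP, rose by a log2 fold change of 3.39, the transporter Slc2a2, which carries glucose, by 3.25 and liver glycogen synthase Gys2 by 3.02. These 4 calls were kept in all 14 other settings, and Cyp2a1, a P450 of rat liver that rose by 2.14, lost its call without GM 1 (2.00, adjusted p = 0.0525). Without GM 3 the value was 4.13 for Gys2 and 2.81 for Cyp2a1. Those that fell, named after their values were seen, were Nampt, the rate-limiting enzyme of NAD salvage (-0.81 ± 0.20, edgeR adjusted p = 0.0148), and the cell cycle inhibitor Cdkn1a (-1.26 ± 0.37, edgeR adjusted p = 0.0257). Nampt lost its call without GZM 3 (-0.82, adjusted p = 0.0562), and Cdkn1a without GZM 1 (-1.32, 0.0571), GZM 2 (-1.25, 0.0827) or GZM 3 (-1.20, 0.0837), with -0.71 without GM 3. Cyp7a1, the rate-limiting enzyme of bile acid synthesis, named after its values were seen, was, like Nr1d1, highest in GZM 1, with 251.8, 45.7 and 66.1 CPM in GZM and 17.5, 15.5 and 65.5 CPM in GM, and did not pass (1.88 ± 0.77, adjusted p = 0.0803). It passed without GM 3 (2.91, adjusted p = 0.0111), and without GZM 1 the value was 0.78 (adjusted p = 0.348).

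Inputs known to reset liver clocks, glucocorticoids and temperature, were followed through lists of their target genes. Of 10 glucocorticoid-responsive genes 3 rose, 0 fell and 7 did not pass (median 0.27), against 44.0% of all genes passing, and with library totals 2 rose and 5 fell (median -0.54), against 68.7%. Tat, tyrosine aminotransferase, rose by 3.49 and Pdk4, the kinase that restrains pyruvate dehydrogenase, by 1.82, both kept in all 14 other settings. As 9 of 10 hepatocyte markers also rose, their part in these calls was not tested. The phosphatase gene Dusp1 rose by 1.33, a call lost without GZM 1 (0.74, adjusted p = 0.0548) or GM 2 (1.15, 0.0831) and with library totals (0.49, adjusted p = 0.292). The classical responders Fkbp5 (-0.47 ± 0.21, adjusted p = 0.103), Sgk1 (-0.53 ± 0.28, adjusted p = 0.151) and Tsc22d3 (0.46 ± 0.39, adjusted p = 0.363) did not pass on the TMM scale. With library totals Fkbp5 (-1.31, edgeR adjusted p = 0.00189) and Sgk1 (-1.34, edgeR adjusted p = 0.0021) were called lower and Tsc22d3 was not (-0.31). Tsc22d3 passed as higher on the TMM scale without GM 3 (1.14, adjusted p = 0.00165). Of 8 temperature-responsive genes 1 rose, 1 fell and 6 did not pass (median -0.26), against 44.0% of all genes passing, and with library totals 0 rose and 5 fell (median -1.11), against 68.7%. Those called on the TMM scale were the chaperone genes Hspa1b (1.79 ± 0.62, edgeR adjusted p = 0.0478) and Hspa8 (-0.77 ± 0.26, edgeR adjusted p = 0.0435), each lost in at least 8 of the 14 settings. Hspa1b was lost without any library but GZM 1 (1.34 to 2.29) and Hspa8 without any but GM 3 (-0.90 to -0.62). The cold-induced Cirbp did not pass (0.41 ± 0.22, adjusted p = 0.16; -0.42 with library totals), nor did its relative Rbm3 (-0.73 ± 0.26, adjusted p = 0.0528), which passed as lower without GM 3 (-0.94, adjusted p = 0.00197) and with library totals (-1.60, adjusted p = 0.00299).

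Profiles over the 6 libraries were compared among 12870 tested genes with a symbol, by the Euclidean distance between log2 CPM values centred on each gene's mean. Nearest to Arntl was Otulin (distance 0.121), with 44.6, 49.1 and 51.5 CPM in GZM and 25.1, 28.1 and 31.0 CPM in GM, then AY172581.9 (0.131) and Snx25 (0.144). Nearest to Dbp were Cd86 (0.115), Smim29 (0.146) and Plxdc1 (0.146), and nearest to Per1 were Fbxo39 (0.218), B3galt4 (0.224) and Ehd1 (0.304). Nearest to Nr1d1, at larger distances, were Ttll3 (0.470), SNORA72 (0.579) and RT1-A1 (0.604), the last from a multigene family whose reads may be split. The distance is not scaled to a gene's own spread, which for Nr1d1 was 3.91-fold within GZM and 1.73-fold within GM. Its size therefore does not tell whether the profile is unusual. The distances are descriptions over 6 libraries that share 2 groups, and none of the other clock genes was among the 3 nearest of these 4.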

How the data were processed

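RNA from 6 rat liver samples was sequenced after poly(A) selection as strand-specific paired-end libraries, per the labels' protocols. Per the submitters' processing notes the build is mRatBN 7.2, but positions in the table reach 282724300 on chromosome 1, past the end of that chromosome there, so no positions from the table are printed. The sources used here do not name an aligner or counter. Per the file headers, the deposited table holds for each sample whole-number counts per gene, not normalized, and FPKM. The deposited FPKM values equal the counts divided by exon length (a size in bases, per the file headers) and by the library total, within 0.01 for all 195738 values. Columns written ZGM were matched to the GZM samples by the letter Z and their number.

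The whole table was tested with edgeR 4.0.16 in R 4.3.3 (quasi-likelihood test, TMM factors, default low-count filter, no covariate, Benjamini-Hochberg adjustment at 0.05). Each SE was taken as the absolute log2 fold change over the square root of its quasi-F statistic. The script was tested on simulated data. CPM values are TMM-scaled, and log2 CPM used a prior count of 2. Ratios between members used FPKM, and those against all genes used counts plus 0.5 per exon length. Single ratios were compared by exact permutation. Alternatives were no low-count filter, median-of-ratios factors, library totals, DESeq2 1.42.0, the replicate number as a block, limma 3.58.1 on log2(FPKM + 0.1) and log2(FPKM + 1), leaving out each library, and leaving out both GM 3 and GZM 1. Members and gene lists were chosen with earlier results of these data known. The lists hold 135 genes, of which 5 were not matched. Named are all members and most other clock factors, and of each further list genes among the 6 of smallest p, with others added for their roles; a few genes that the lists' counts include are not reported here. Promoters are from RefSeq (GRCr8), matched by symbol. Figures were drawn with matplotlib 3.10.9.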

Additional observations from a re-analysis of the deposited data

How the results depend on the processing

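The number of genes that passed ranged from 3777 (without GZM 2) to 7024 (without GM 3) when 1 library was left out, against 6285 with all, and the number of clock genes from 4 to 5, against 5. Scaling to library totals changed most: 9828 genes and 3 members passed in edgeR, 9835 and 3 with limma on log2(FPKM + 0.1), and 9753 and 2 on log2(FPKM + 1). The log2 fold changes that turned in these 3 settings, in that order, were Arntl (-0.075, -0.078, -0.072), Clock (-0.17, -0.17, -0.15), Per1 (-0.10, -0.12, -0.10), Per3 (-0.66, -0.62, -0.36), Cry1 (-0.27, -0.26, -0.22), Nr1d1 (-0.66, -0.87, -0.63), Nr1d2 (-0.28, -0.32, -0.28), Arntl2 (-0.30, -0.24, -0.17), Bhlhe40 (-0.073, -0.069, -0.067), Tef (-0.15, -0.17, -0.15), Fbxw11 (-0.37, -0.38, -0.36), Tsc22d3 (-0.31, -0.22, -0.21) and Cirbp (-0.42, -0.44, -0.42). All 3 scale to library totals in place of TMM factors, and the limma settings also change the test and add a pseudocount. In edgeR the change of scale alone lowered the log2 fold change of all 46 genes followed through the alternatives. Nr1d1 also turned with the replicate block (-0.10) and without both GM 3 and GZM 1 (-0.63), and ran from -0.74 to 0.52 when 1 library was left out; the cause was not tested.

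Libraries of the same number did not vary together (correlation of deviations from group means -0.14, 0.16 and -0.27), so the numbers were not taken to pair samples. With the replicate block 5166 genes and 5 members passed. In the ratios the block left the differences as they were, with an exact sign p of 0.25 for Per2/Cry1 and Dbp/Arntl, the smallest that 3 pairs allow, and 0.5 for Nr1d1/Arntl. Leaving out 1 library moved the log2 difference between 1.39 and 1.92 for Per2/Cry1, between -1.36 and -1.09 for Dbp/Arntl and between -1.49 and -0.43 for Nr1d1/Arntl. Over those 46 genes and 14 alternatives, 494 of 644 values kept direction and side of the threshold, 67 lost their call, 40 gained one and 43 turned. Per2 was among 12 genes with no change in any. Bhlhe41, Rora and Hlf rest on few counts, which limits their precision.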
